A study of Mus musculus with 71 samples.

Results

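App, Scarb1, Mat2a and Ostc are 4 genes whose blood level differed between mice given the anti-galectin-3 antibody D11 and untreated HOCl mice, and they were chosen by their vst values in those 2 groups. They are 4 of the 10508 protein-coding genes with a normalized value in mouse whole blood, and of 55416 genes with read counts. In D11 mice App and Scarb1 were lower and Mat2a and Ostc were higher than in untreated HOCl mice, so that contrast is described below without a test. The questions that can be tested are how the same genes behaved in mice labelled with 3 other treatments, how all of these groups stood against control mice, and which other genes and blood cell markers varied with them from mouse to mouse.

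All mice were female Balb/c AnNRj animals, 6 weeks old at inclusion, and none is described as carrying a transgene or deletion. The HOCl model of systemic sclerosis, an autoimmune disease with fibrosis of skin and lung, was induced by intradermal injection of hypochlorous acid on 5 days a week for 6 weeks. The groups comprised 11 control mice that received PBS in place of HOCl (CTRL), 12 mice with HOCl alone (HOCL), and 12 mice each given HOCl plus D11, E07, D06 or BPR21. D11 and E07 are antibodies that neutralize galectin-3, a secreted lectin that binds sugars on cell surfaces, and were injected subcutaneously. What D06 and BPR21 are is not given in the sources used here, so these groups are called by their labels. The genotype field of the labels reads HOCL also for the control mice, and the groups were taken from the sample titles. Control and HOCl-treated mice did not share cages, so group and cage cannot be told apart.

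App encodes the amyloid precursor protein, a single-pass membrane protein that alpha-, beta- and gamma-secretases cut into soluble and membrane-bound pieces, and that platelets and leukocytes carry as well as neurons. Scarb1 encodes scavenger receptor class B type 1, the cell surface receptor that takes cholesterol esters from high-density lipoprotein. Mat2a encodes the catalytic subunit of the methionine adenosyltransferase that, in most cells outside the liver, makes the methyl donor S-adenosylmethionine. The Mat2a mRNA is itself regulated by the S-adenosylmethionine supply. Ostc encodes a small subunit of the oligosaccharyltransferase, the endoplasmic reticulum complex that transfers N-glycans to newly made proteins.

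All 4 genes lie on the minus strand of GRCm39 in the GENCODE vM39 annotation. App (ENSMUSG00000022892) spans chr16:84746573-84971126 with 17 exons in its canonical transcript. Scarb1 (ENSMUSG00000037936) spans chr5:125353547-125418176 with 13 exons, Mat2a (ENSMUSG00000053907) spans chr6:72409779-72416684 with 9 exons, and Ostc (ENSMUSG00000041084) spans chr3:130489561-130503095 with 4 exons. Values are for whole genes, exons of all transcripts combined. Mat2a overlaps Ggcx and Particl on the opposite strand by 791 and 651 bases, whose median counts were 32 and 30 against at least 356 for Mat2a in any mouse, and the strand setting of the counting is not given in the sources used here. The genes that overlap the other members had a median count of 0 where they were counted.

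RefSeq promoter sequences were at hand for 2 of the 4 genes, App and Mat2a, one that was lower and one that was higher with D11. The 250 bases before the transcript start are shown 5′ to 3′ on the gene's strand, in the GRCm38.p6 build. These 2 genes are shown because the table of promoter sequences held no other member. Any bearing of the motifs on the levels was not tested. The RefSeq start of App is not that of the GENCODE canonical transcript, and positions below count from the RefSeq start. Capitals mark matches on either strand to the GC box, spelled GGGCGG, to the CCAAT box, spelled as its name, and to the TATA box, spelled TATAAA.
App, chr16:85173708-85173957: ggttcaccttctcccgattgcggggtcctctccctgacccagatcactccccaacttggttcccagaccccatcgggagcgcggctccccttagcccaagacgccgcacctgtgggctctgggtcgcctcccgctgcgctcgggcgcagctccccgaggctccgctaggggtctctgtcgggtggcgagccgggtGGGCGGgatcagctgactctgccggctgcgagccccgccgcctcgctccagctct
Mat2a, chr6:72439557-72439806: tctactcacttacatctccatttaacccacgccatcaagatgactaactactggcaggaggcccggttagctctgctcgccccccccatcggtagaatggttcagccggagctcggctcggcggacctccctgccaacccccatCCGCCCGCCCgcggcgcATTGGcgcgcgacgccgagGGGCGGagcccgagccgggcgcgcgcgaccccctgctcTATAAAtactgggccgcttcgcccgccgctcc
Both stretches were rich in G and C, at 70.8% for App and 67.6% for Mat2a. App held 1 GC box, which began 55 bases before the start, and neither of the other motifs. Mat2a held 3 GC boxes, of which 2 overlapped, a CCAAT box that began 89 bases before the start and a TATA box that began 32 bases before it. Of all 32851 promoter stretches of this length in the table, 32.7% held a GC box, 33.8% a CCAAT box and 12.4% a TATA box. Neither stretch held the E-box CACGTG, the cAMP response element TGACGTCA, the heat shock element core GAANNTTC, the myeloid PU.1 motif GAGGAAGT, the GATA motif AGATAA or the endoplasmic reticulum stress element, which 6.02%, 1.55%, 6.69%, 2.44%, 9.99% and 0.113% of the stretches held.

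Levels are given as the vst values of the authors, a log2-like scale on which counts were divided by a size factor per mouse and their variance was evened out. A vst difference can be smaller than the log2 fold-change of the counts. Scarb1 in BPR21 against CTRL, for example, was at -0.61 in vst values and at -0.86 by edgeR. Between 11932855 and 15948972 reads were counted per mouse (median 13719277), and at this depth the lowest count of a member in any mouse was 55, for Scarb1. Mouse 8 of the HOCL group has counts but no vst value, so HOCL is 11 mice on the vst scale. The defining markers of blood cells were present, with 21 of 22 erythroid, 15 of 16 platelet, 13 of 13 monocyte, 13 of 13 B cell and 13 of 13 T cell genes in the vst table. The size factors differed between groups at similar totals, with means of 1.29 in CTRL and 1.28 in E07 but 0.868 to 0.980 in the other 4 groups. Of the erythroid genes, 21 of 21 rose in D06 (all genes called, 7.88%) and 19 of 21 in HOCL (4.96%) against CTRL, 0 of 21 passed in D11, E07 or BPR21, and 20 of 21 were lower in E07 than in HOCL (7.89%; limma, both thresholds). The erythroid list median against CTRL was 0.70 in D11 and 0.69 in BPR21, beside -0.07 in E07. Of 15 platelet genes, 9 rose in D06, 7 in HOCL and 1 in BPR21 against CTRL. In bulk blood, fewer cells of a type and less RNA per cell cannot be told apart.

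App had its highest mean in HOCL blood. Its vst value ranged from 8.37 to 9.88 in CTRL mice (median 8.99) and from 8.77 to 9.65 in HOCL mice (median 9.28). In the treated groups it ranged from 8.12 to 8.94 in D11 (median 8.65), 8.18 to 9.12 in E07 (median 8.56), 7.89 to 9.39 in D06 (median 8.61) and 8.15 to 9.92 in BPR21 (median 8.47). The control group overlapped every other group, and the highest value of the series belonged to a BPR21 mouse, number 11, which stood above every HOCL mouse. App was the most variable of the 4 genes among mice of a group, with a within-group SD of 0.37, more than that of 89.2% of the genes in the table.

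Scarb1 had the same median in CTRL and HOCL mice and a lower one in each treated group. It ranged from 8.43 to 9.62 in CTRL (median 8.96) and from 8.72 to 9.19 in HOCL (median 8.96). The range was 7.89 to 8.82 in D11 (median 8.56), 8.06 to 9.02 in E07 (median 8.38), 7.69 to 9.02 in D06 (median 8.43) and 7.69 to 8.91 in BPR21 (median 8.36). The same CTRL mouse, number 6, was the highest of its group for App and for Scarb1, and the same E07 mouse, also numbered 6, was the highest of its group for both genes and the lowest for Mat2a.

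Mat2a had its lowest mean in HOCL blood and its highest in BPR21 blood. It ranged from 9.83 to 10.57 in CTRL (median 10.10) and from 9.46 to 10.04 in HOCL (median 9.91). It ranged from 10.03 to 10.61 in D11 (median 10.32), 9.81 to 10.63 in E07 (median 10.16), 9.99 to 10.63 in D06 (median 10.34) and 9.88 to 11.07 in BPR21 (median 10.42). The BPR21 mice were the most spread (SD 0.38, n = 12), and the one with the least Mat2a was mouse 11, the mouse with the most App.

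Ostc was the steadiest of the 4 genes, with a within-group SD of 0.18, more than that of only 5.45% of the genes. It ranged from 9.19 to 9.85 in CTRL (median 9.48) and from 8.91 to 9.46 in HOCL (median 9.35). The treated ranges were 9.50 to 10.04 in D11 (median 9.73), 9.33 to 9.88 in E07 (median 9.60), 9.05 to 9.98 in D06 (median 9.64) and 9.37 to 9.79 in BPR21 (median 9.59). The lowest D06 value belonged to mouse 5, which also had the lowest size factor of all libraries (0.413) and the highest App value of its group.

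Per length of exon sequence, in reads per kilobase scaled to the reads counted in the library (RPKM), Mat2a and Ostc were of similar abundance in control blood, with medians of 18.5 and 18.3. Scarb1 and App were lower, with medians of 3.02 and 1.84.

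**Figure D1:**
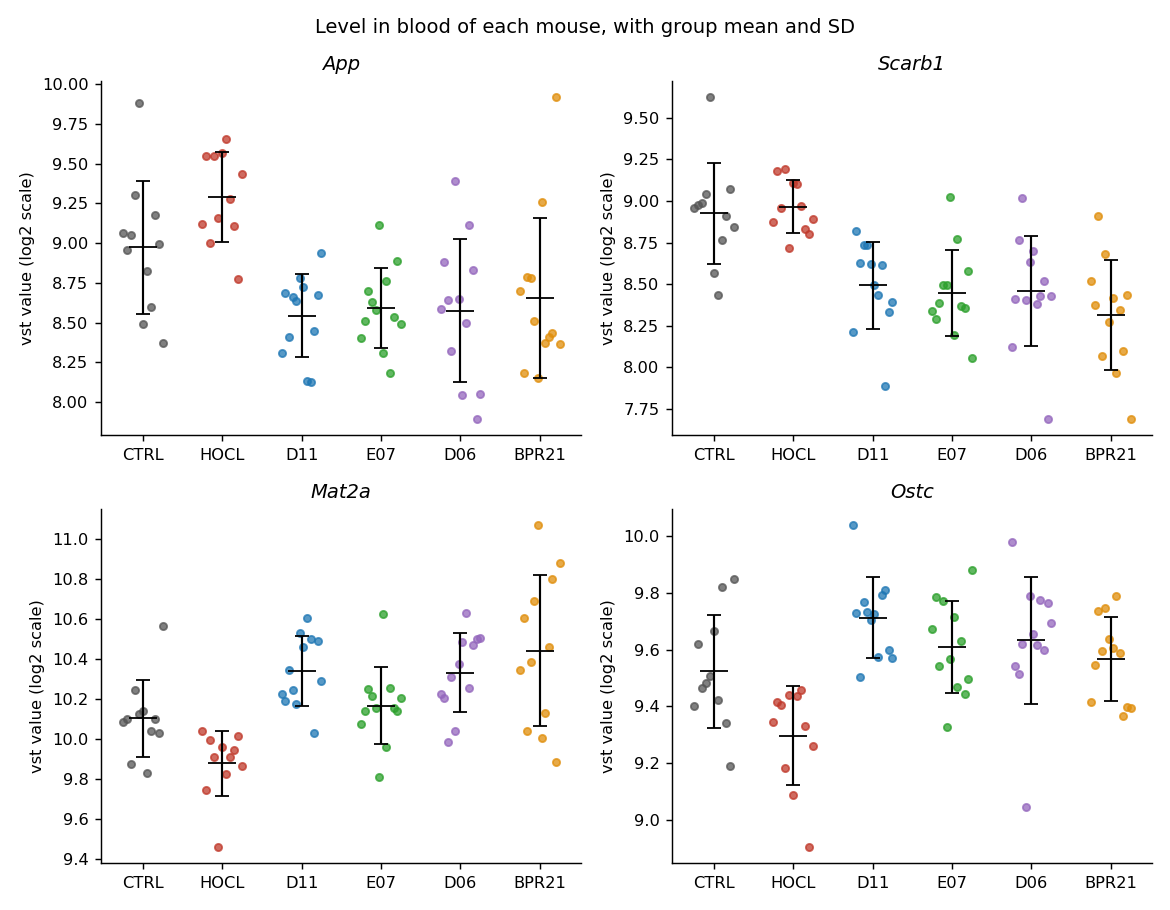
Each point is the vst value (log2 scale) of 1 mouse, with 1 panel per gene and 1 column per group; the bar and whiskers are the group mean and SD (n = 11 for CTRL and HOCL, 12 for the other groups). The 4 treated groups lie close together in each panel, App and Scarb1 mostly below and Mat2a and Ostc mostly above the HOCL mice.

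The contrast that chose the members is given here as a description. Compared with the 11 HOCL mice, the 12 D11 mice had App lower by a difference of means of -0.75 ± 0.11 (SE) and Scarb1 lower by -0.47 ± 0.09 on the vst scale. Mat2a was higher by 0.46 ± 0.08 and Ostc by 0.42 ± 0.08. App in 10 and Scarb1 in 9 of the 12 D11 mice lay below every HOCL mouse, and Mat2a in 11 and Ostc in 12 of them lay above every HOCL mouse. Of all genes, 6 (0.0571%) passed the thresholds of the choice, by limma a fold-change of 1.3 or more with an FDR (Benjamini-Hochberg) no higher than 0.05. The other 2 were Psmd2, a proteasome subunit, at -0.42, and Ccr3, the eotaxin receptor of eosinophils, at 0.90. Scarb1 was the gene nearest to the limit inside it, with an FDR of 0.0497, and Mmp8, a neutrophil collagenase, was the nearest outside it, at a difference of -0.95 with an FDR of 0.0514. With each mouse left out in turn, the differences ranged from -0.80 to -0.71 for App, -0.50 to -0.42 for Scarb1, 0.42 to 0.49 for Mat2a and 0.38 to 0.43 for Ostc.

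HOCL mouse 8 took no part in the choice because it has no vst value, but the 12 D11 mice it is set against here did. In counts scaled to the library total (CPM), its App level of 39.6 and its Scarb1 level of 32.2 lay above all 12 D11 mice, which reached 27.8 and 27.2. Its Mat2a level of 40.3 lay below all 12 D11 mice, of which the lowest had 41.6. Its Ostc level of 32.6 lay below 11 of the 12 D11 mice. This is 1 mouse, and no test was made on it. The D11 side of the comparison carries the choice, so the comparison is a description and nothing is read from it. On this scale the other HOCL mice also overlapped the D11 mice for each gene. Their lowest Scarb1 level was 14.99, below the highest D11 level, and their highest Ostc level was 49.07, above the lowest D11 level of 27.81.

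E07, D06 and BPR21 mice were compared with control mice, which involves no mouse of the choice. The same 11 control mice served in each of these comparisons, so the comparisons are not independent of each other. Scarb1, the HDL receptor, had a lower mean in each of the 3 groups. The difference was -0.47 ± 0.13 (SE) in D06 (limma, FDR = 0.0162) and -0.61 ± 0.13 in BPR21 (FDR = 0.0250), both past the thresholds. It was -0.48 ± 0.11 in E07 with an FDR of 0.127, which did not pass. Below the control median of Scarb1 lay 11 of 12 E07, 11 of 12 D06 and 12 of 12 BPR21 mice. Among all genes 0.00952% were called in E07 (1 gene), 7.88% in D06 and 0.504% in BPR21. Of the genes called, 0 were lower in E07, 64 in D06 and 37 in BPR21. Of the 4 members 0, 1 and 1 were called. In E07, 2 of 4 members had an unadjusted p under 0.05 by limma, as did 799 of all 10508 genes, and 1 member passed by DESeq2. In a comparison added after the data were seen, the 36 mice of the 3 groups together had Scarb1 lower than the 11 control mice by -0.52 ± 0.10 (limma, FDR = 0.0105; 34 of 36 mice below the control median), where 0.39% of all genes were called.

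Single libraries moved these calls. The Scarb1 call in D06 was kept with each of the 23 mice left out in turn, with FDRs of 0.00766 to 0.0313. The call in BPR21 was lost without CTRL mouse 1 (FDR = 0.0551), mouse 2 (FDR = 0.0523) or mouse 11 (FDR = 0.0534), and Scarb1 passed in E07 without E07 mouse 6 (limma, FDR = 0.0355). On counts, Scarb1 in E07 had a log2 fold-change of -0.67 with an FDR of 0.0637 by edgeR, and of -0.68 with an FDR of 0.0188 by DESeq2.

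The mean of App differed from that of control mice by -0.38 ± 0.13 in E07, -0.40 ± 0.17 in D06 and -0.32 ± 0.18 in BPR21, none of which passed (limma, FDR = 0.418, 0.134 and 0.332). Mat2a differed from control by 0.06 ± 0.08 in E07, 0.23 ± 0.09 in D06 and 0.34 ± 0.12 in BPR21, and none passed (limma, FDR = 0.935, 0.107 and 0.133). The BPR21 value passed without CTRL mouse 12 (limma, 0.38, FDR = 0.0488), the control mouse with the most Mat2a. Ostc differed by 0.08 ± 0.08, 0.11 ± 0.09 and 0.04 ± 0.08, with FDRs of 0.529 to 0.883 by limma. Over the 3 groups together, App was at -0.37 ± 0.14, Mat2a at 0.21 ± 0.09 and Ostc at 0.08 ± 0.07 (limma, FDR = 0.140, 0.196 and 0.616).

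Against control mice, HOCL mice passed the thresholds in 0 of the 4 genes by limma, edgeR or DESeq2, where 4.96% of all genes did by limma. An unadjusted p under 0.05 by limma was seen in 3 of the 4 members and in 1885 of all 10508 genes. The difference was 0.32 ± 0.14 for App, -0.22 ± 0.08 for Mat2a and -0.23 ± 0.09 for Ostc (limma, FDR = 0.225, 0.120 and 0.132). Scarb1 differed by 0.04 ± 0.10, with a 95% interval of -0.17 to 0.25 (limma, FDR = 0.889). D11 mice differed from control mice by -0.43 ± 0.13 for App, -0.43 ± 0.11 for Scarb1, 0.24 ± 0.08 for Mat2a and 0.19 ± 0.08 for Ostc, and 0 members passed by limma or edgeR (limma, FDR = 0.106 to 0.220) where 0.0761% of all genes did. Both comparisons share mice with the choice of the members.

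The 3 other treated groups were also compared with the HOCL mice, whose values had chosen the members. A gene picked for standing high or low in these HOCL mice carries that choice into each comparison with them, so the FDRs and the shares of all genes called are given here as descriptions and nothing is read from them. In E07 mice App was lower by -0.70 ± 0.11 and Scarb1 by -0.52 ± 0.09 (limma, FDR = 0.000129 and 0.000325), and 10 of 12 E07 mice lay below every HOCL mouse for each gene. Mat2a was higher by 0.29 ± 0.08 and Ostc by 0.31 ± 0.08 (limma, FDR = 0.0137 and 0.00581), but on the vst scale the fold-change stayed under 1.3. On counts, the log2 fold-changes of Mat2a and Ostc were 0.40 and 0.42 by edgeR, and both passed. By DESeq2 they were 0.36 and 0.38, and only Ostc passed. By limma 2 of the 4 members, App and Scarb1, were called, and of all genes 7.89%. With the erythroid score in the model neither was called (limma, FDR = 0.289 for App and Scarb1), and Scarb1 was not called with total-count scaling (FDR = 0.224).

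In D06 mice App was lower by -0.72 ± 0.15 and Mat2a higher by 0.45 ± 0.09 (limma, FDR = 0.0402 and 0.0309), whereas Scarb1 at -0.51 ± 0.11 and Ostc at 0.34 ± 0.09 did not pass (FDR = 0.0599 and 0.125), with 2 of 4 members and 0.133% of all genes called. The D06 calls of App and Mat2a were lost in a fit with mouse numbers as a replicate block (limma, FDR = 0.113 for each), with total-count scaling (FDR = 0.0613 and 0.671) and with the monocyte score (FDR = 0.699 and 0.649). In BPR21 mice Scarb1 was lower by -0.65 ± 0.11 and Mat2a higher by 0.56 ± 0.12 (limma, FDR = 0.00472 and 0.0230), whereas App at -0.63 ± 0.16 and Ostc at 0.27 ± 0.08 did not pass (FDR = 0.0592 and 0.0904). Of the 4 members 2 were called, and of all genes 0.638%. Both BPR21 calls were lost with total-count scaling (limma, FDR = 0.211 for Scarb1 and 0.245 for Mat2a) and with the monocyte score (FDR = 0.712 and 0.994), and that of Mat2a also with the replicate block (FDR = 0.0608).

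**Figure D2:**
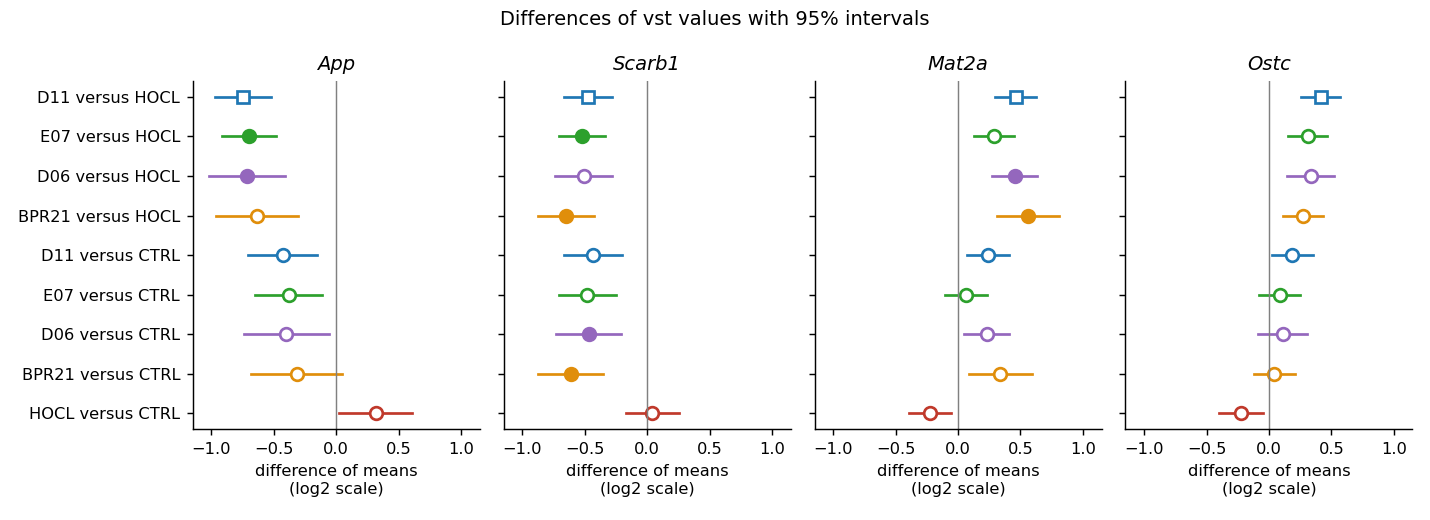
Differences of mean vst values (log2 scale) with 95% intervals for 9 comparisons, 1 panel per gene. Filled circles passed both thresholds (FDR 0.05, fold-change 1.3), open circles did not, and squares mark D11 against HOCL, which chose the genes and carries no test. The other comparisons with HOCL carry that choice too, so their circles are descriptions. Against CTRL, Scarb1 is to the left of 0 in E07, D06 and BPR21, with HOCL against CTRL at 0.04.

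The 4 treated groups were set against each other in 6 pairs for each of the 4 genes, and 0 of 24 comparisons passed by limma, edgeR or DESeq2. In limma 2 of the 24 had an unadjusted p under 0.05. Of all 10508 genes, 621 (BPR21 against D11) to 2922 (D06 against E07) had such a p. Of all genes, 0% were called for D06 or BPR21 against D11, 0.0571% for BPR21 against D06, 4.57% for E07 against D11, 7.26% for BPR21 against E07 and 9.76% for D06 against E07. The widest gap for App was 0.11 between BPR21 and D11, with a 95% interval of -0.20 to 0.42. For Scarb1 it was -0.18 for BPR21 minus D11 (-0.42 to 0.06), for Mat2a 0.28 for BPR21 minus E07 (0.03 to 0.52) and for Ostc -0.14 for BPR21 minus D11 (-0.29 to 0.00). With CPM scaling in place of size factors 7 of the 24 passed. The intervals leave room for differences of up to 0.52 on the log2 scale, so equal levels are not shown. In order of mean level, App rose from D11 (8.54) over D06, E07 and BPR21 (8.66) to CTRL (8.97) and HOCL (9.29), and Scarb1 from BPR21 (8.31) over E07, D06 and D11 (8.49) to CTRL (8.93) and HOCL (8.97). Mat2a rose from HOCL (9.88) over CTRL (10.10), E07, D06 and D11 to BPR21 (10.44), and Ostc from HOCL (9.30) over CTRL (9.52), BPR21, E07 and D06 to D11 (9.71). No neighbours in these orders differed past the thresholds.

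After each group's mean was taken off, the mouse-to-mouse variation of the members was compared over the 70 mice of the vst table. These correlations are descriptions, since the values of a mouse share 1 library, its size factor and its cell make-up. App and Scarb1 varied together (Pearson r = 0.43, Spearman rho = 0.45), and App and Mat2a varied inversely (r = -0.54, rho = -0.48). App and Ostc were inverse with r = -0.32, Scarb1 with Mat2a and with Ostc gave -0.20 and -0.15, and Mat2a with Ostc, the pair that was higher with D11, gave 0.06. In the 47 mice of the 4 groups that took no part in the choice, App with Scarb1 gave 0.44 and App with Mat2a gave -0.60.

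The genes whose variation was most like that of App were Pygl, the liver-type glycogen phosphorylase (r = 0.77), Lcp1, the leukocyte actin-bundling plastin (0.77), Xdh, xanthine dehydrogenase (0.76), Cpd, carboxypeptidase D (0.75) and Anxa2, annexin A2 (0.74). The most inverse were the lymphocyte genes Gimap8 (-0.61) and Cd2 (-0.59). For Scarb1 they were Clec4a1, a C-type lectin of myeloid cells (0.66), Tmem176b (0.58), Mpeg1, the pore-forming perforin-2 of macrophages (0.57), Ctss, the lysosomal protease cathepsin S (0.56) and Zfp385a (0.54), with Gtf2h2 (-0.56) and Zfp236 (-0.54) the most inverse.

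For Mat2a the most similar were Dnaja1, an HSP40 co-chaperone (0.68), Cacybp (0.60), the splicing kinase Prpf4b (0.59), the RNA-binding protein gene Tardbp (0.57) and the HSP90 partner Chordc1 (0.56). The most inverse were Cd177, a surface glycoprotein of neutrophils (-0.63), and Tifab (-0.60). Ostc varied most like Cox7a2l (0.64), the leukocyte surface gene Cd52 (0.64), Pigp, a subunit of the enzyme that starts GPI anchor synthesis (0.63), the ribosomal protein gene Rpl32 (0.63) and the splicing factor gene Snrpb2 (0.63), and was most inverse to Madd (-0.65) and the translation initiation scaffold Eif4g1 (-0.63).

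Marker lists of blood cells moved with App and Scarb1. A list's score in a mouse was the average, over its genes, of vst values scaled to z-scores. With group means taken off, the score of 13 monocyte genes correlated at r = 0.62 with App, 0.59 with Scarb1, -0.52 with Mat2a and -0.10 with Ostc over the 70 mice. The score of 11 neutrophil genes correlated at 0.63 with App, 0.21 with Scarb1, -0.45 with Mat2a and 0.02 with Ostc, and that of 13 T cell genes at -0.48 with App. The erythroid score, which separated the groups, gave only 0.19, -0.01, -0.11 and -0.15 with the 4 genes.

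**Figure D3:**
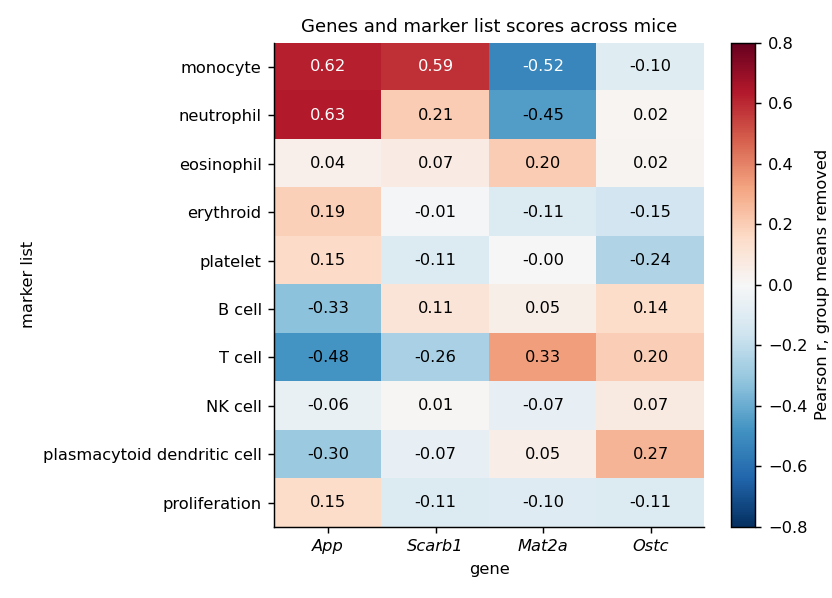
Pearson r between each gene's vst value and the score of each marker list over 70 mice, after group means were taken off. The monocyte row holds 0.62 for App, 0.59 for Scarb1 and -0.52 for Mat2a, whereas the values of Ostc lie between -0.24 and 0.27.

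The monocyte score also moved with the groups. Its mean was 0.53 in CTRL and 0.48 in HOCL, -0.08 in D11, -0.05 in E07, -0.10 in D06 and -0.70 in BPR21. The summed CPM of the 13 genes ranged from 524 to 1624 in CTRL, 445 to 963 in HOCL, 373 to 972 in D11, 635 to 1053 in E07, 312 to 770 in D06 and 165 to 861 in BPR21. Its medians were 1143, 705, 694, 853, 600 and 505 in the same order. On that scale, unlike in the score, HOCL lay below E07 and well below CTRL. Against CTRL, 0 of 13 monocyte genes were lower past the thresholds in E07, 1 in D06 and 5 in BPR21. Of all 10508 genes, 0, 64 and 37 were lower past them, and 0.00952%, 7.88% and 0.504% were called in either direction. The monocyte genes lower in BPR21 included Ccr2, the chemokine receptor of classical monocytes, at -1.08, and Cx3cr1, that of patrolling monocytes, at -0.88.

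With the monocyte score in the model, an alternative chosen after the data were seen, the Scarb1 differences from control fell to -0.22 in E07, -0.24 in D06, -0.12 in BPR21 and -0.20 in the 3 groups together, and none passed (limma, FDR = 0.413, 0.309, 0.850 and 0.389). App then differed from control by -0.07, -0.03 and 0.36, and from HOCL by -0.42 in E07 (limma, FDR = 0.0245), -0.34 in D06 and 0.02 in BPR21 (FDR = 0.699 and 0.987). With the neutrophil score in the model instead, App passed against control in E07 (-0.44, limma, FDR = 0.0275) and D06 (-0.57, FDR = 0.0159). With the erythroid score, Scarb1 kept its size in D06 (-0.53) and BPR21 (-0.55) but did not pass (limma, FDR = 0.388 and 0.351). The monocyte score itself differed between groups and came from the same libraries, so in these fits monocyte content and group cannot be told apart. The part of monocyte content in the levels of these genes was not tested.

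The size factors bear on the direction of Mat2a and Ostc against control mice. With CPM in place of size factors (log2 of CPM plus 1), the median of all genes moved by -0.57 in D06, -0.38 in BPR21 and 0.02 in E07 against CTRL. On that scale Mat2a was at -0.31 in D06 and -0.03 in BPR21, and Ostc at -0.43 and -0.34, below control in place of above. Relative to the median of all genes, Mat2a was at 0.26 and 0.35 and Ostc at 0.14 and 0.04. Scarb1 was at -1.17 in D06 and -1.21 in BPR21 on the CPM scale, and at -0.60 and -0.83 relative to the median. Of 40 member differences from CTRL or HOCL, 40 had the same sign relative to that median as in the vst values. Taking off the median does much the same as the size factors within the vst values. This agreement was therefore close to fixed in advance, and nothing is read from it. E07 and CTRL, whose size factors were alike, gave Scarb1 at -0.62 and App at -0.48 with CPM. Neither passed (limma, FDR = 0.645 and 0.9997).

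**Figure D4:**
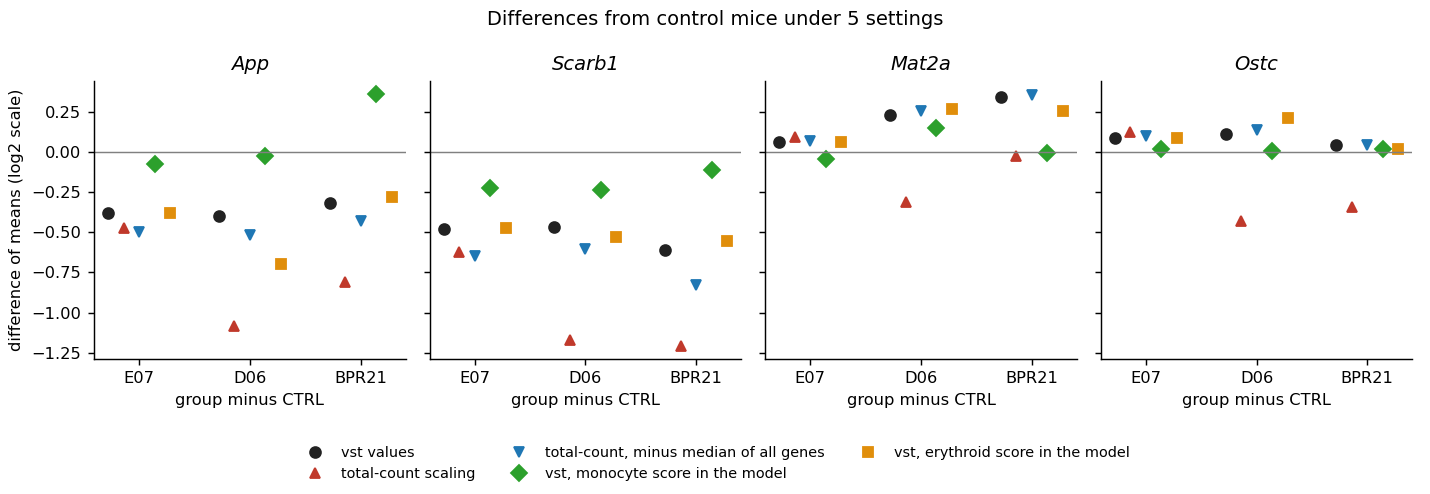
Differences from control mice (log2 scale) in E07, D06 and BPR21 under 5 settings, 1 panel per gene: vst values, CPM of the total count, CPM relative to the median of all genes, and vst values with the monocyte or the erythroid score in the model. Sizes on the vst and CPM scales are not directly comparable. Scarb1 lies below 0 under each of the 5 settings, nearest to it with the monocyte score. Mat2a and Ostc lie below 0 with total-count scaling in D06 and BPR21, and Mat2a is at -0.043 in E07 and -0.0049 in BPR21 with the monocyte score.

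Pathway partners of the members passed the thresholds against control mice mainly in D06, where 7.88% of all genes did, beside 0.00952% in E07 and 0.504% in BPR21. Of the 14 listed genes of APP processing and its paralogues in the table, 0 passed against CTRL in E07 and BPR21, and 2 rose in D06, the gamma-secretase subunit Psenen (0.57) and Itm2b (0.41). The list median against CTRL was 0.03, -0.05 and 0.02 in E07, D06 and BPR21, beside 0.00, -0.03 and -0.01 for all genes. The metalloprotease Adam10, the main alpha-secretase, was at 0.03, 0.22 and 0.18, the paralogue Aplp2 at -0.02, -0.05 and -0.20, and none passed.

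Of 18 genes of HDL and cholesterol handling, 0 passed in E07, and 1 rose and 1 fell in D06 against CTRL. They were the fatty acid and lipid receptor Cd36 (1.24 in D06) and Apoe, the apolipoprotein that macrophages secrete (-0.54 in D06). Apoe was at -0.47 in E07 and -0.62 in BPR21 without passing, and was lower by -0.54 over the 3 groups together (limma, FDR = 0.0444). The list median was -0.07 in E07 and -0.10 in D06. The closest relative of Scarb1 on the list, the lysosomal Scarb2, was at -0.08, 0.00 and -0.02 in E07, D06 and BPR21.

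Of 18 genes of the methionine cycle and S-adenosylmethionine use, 3 rose in D06 against CTRL and 0 passed in E07 or BPR21. The 3 were Mat2b, the regulatory partner of the Mat2a enzyme (0.54), the polyamine enzyme Odc1 (0.76) and the amino acid transporter chain Slc3a2 (0.43). The list median was -0.01 in E07 and 0.01 in BPR21. Odc1 was also higher in HOCL than in CTRL mice (0.69), the direction opposite to that of the Mat2a mean. Of 18 genes of the oligosaccharyltransferase and its partners, 3 rose in D06, namely Ost4 (0.95), Sec61b (0.40) and Sec61g (1.40), and 0 passed in E07 or BPR21, with a list median of 0.08 in D06. The other subunits Rpn1, Ddost and Dad1 were at -0.12, -0.18 and 0.16 in D06 without passing. The erythroid genes rose in the same D06 comparison, as given above, and their part in these changes was not tested.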

How the data were processed

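Total RNA of terminal whole blood was sequenced after poly A selection and globin depletion. The authors trimmed adaptors with Cutadapt, aligned reads to mm39 with STAR, counted reads per gene with featureCounts and deposited the counts for 55416 genes and 71 mice. They also deposited values on a log2 scale, made with the vst function of DESeq2, for 10508 protein-coding genes and 70 mice. Of these, 10501 were matched to the counts. Totals of 11932855 to 15948972 counts per mouse set the precision, and sample numbers limit it further. The 4 genes and the gene lists were chosen with earlier results of these data known.

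Differences in the deposited vst values were tested in R 4.3.3 with limma 3.58.1, each pair of groups in its own fit over all genes, with the study's thresholds of 0.05 for the FDR (Benjamini-Hochberg) and 1.3 for the fold-change. For D11 against HOCL the FDRs printed are values of the choice itself and serve as no test. Alternatives were edgeR 4.0.16 (quasi-likelihood, TMM) and DESeq2 1.42.0 on the counts, total-count scaling with a pseudocount of 1 or 0.5, other filters, 1 fit of all groups, the mouse number as a block, covariates and leaving out each mouse. The edgeR and DESeq2 fits included HOCL mouse 8, so their comparisons with HOCL rest on 12 HOCL mice where limma had 11. The comparison of 3 groups together with CTRL and the monocyte and neutrophil covariates were added after the data were seen. Other computations used Python 3.11.15, pandas 2.3.3, numpy 2.4.6 and matplotlib 3.10.9. Named genes were the members, genes of the lists, the 5 most like and 2 least like each member by Pearson r with group means taken off, and the genes at the limits of the D11 contrast. The BPR21 count of the cholesterol list is not reported here.

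On data simulated for E07 against CTRL (10501 genes, 200 changed), limma recovered 53.6% of 1.5-fold, 83.6% of 2-fold and 98.6% of 4-fold changes with 3 false calls. edgeR recovered 62.5%, 84.9% and 98.6% with 10, and DESeq2 67.9%, 89% and 100% with 17.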

Additional observations from a re-analysis of the deposited data

How the results depend on the processing

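Alternative values of single genes were tallied for the comparisons with CTRL or HOCL other than D11 against HOCL. Of these values, 372 kept direction and call, 37 passed only under the alternative, 25 lost their call and 30 changed sign. Comparisons between treated groups are outside this tally. There the sign changed in 0 of 13 alternatives (as for App in BPR21 against D06) to 5 of 13 (App and Scarb1 in D06 against E07). Scarb1 against CTRL changed sign in none of 13 alternatives in E07, D06 or BPR21 and was called in 3, 11 and 11 of them (FDR ranges 0.00849 to 0.654, 0.000844 to 0.388 and 0.000786 to 0.850), and in 10 of 12 for the 3 groups together. The lowest count of a member in any mouse was 55.

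With total-count scaling at a pseudocount of 1 and of 0.5, Mat2a was at -0.31 and -0.31 in D06, -0.027 and -0.028 in BPR21, -0.11 and -0.11 in D11 and -0.082 and -0.083 in the 3 groups together against CTRL. Ostc was at -0.43 and -0.44 in D06, -0.34 and -0.34 in BPR21, -0.15 and -0.15 in D11 and -0.22 and -0.22 in the 3 groups. In HOCL against CTRL, App was at -0.072 and -0.072 and Scarb1 at -0.41 and -0.42, and Ostc in D11 against HOCL was at 0.59 and 0.60. That scaling moved the median of all genes, as given in the report. With the monocyte score in the model, Mat2a against CTRL was at -0.043 in E07, -0.0049 in BPR21 and -0.041 in the 3 groups, App was at 0.36 in BPR21 and 0.082 in the 3 groups, and against HOCL in BPR21 App was at 0.025 and Mat2a at -0.0082. Scarb1 in HOCL against CTRL was at -0.0076 with the replicate block, -0.055 with the erythroid and -0.081 with the neutrophil score. The cause was not tested.

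The number of members called changed by over 1.5 times as follows, and went from 2 to 3 in 12 further alternatives of the comparisons with HOCL. E07 against CTRL went from 0 to 1 by DESeq2, 1 with the replicate block and 2 with the neutrophil score. D06 against CTRL went from 1 to 3 and 2 with total-count scaling, 2 with the neutrophil score and 0 with the erythroid or monocyte score. BPR21 against CTRL went from 1 to 0 with the erythroid or monocyte score, HOCL against CTRL from 0 to 2 and 2 with total-count scaling, and D11 against CTRL from 0 to 1 with total-count scaling at a pseudocount of 1. E07 against HOCL went from 2 to 4 by edgeR under each of 3 filters, 0 with the erythroid and 1 with the monocyte score. D06 against HOCL went from 2 to 4 by DESeq2 and to 0 with total-count scaling, the replicate block or the monocyte score. BPR21 against HOCL went from 2 to 0 with total-count scaling or the monocyte score and to 1 with the replicate block. The 3 groups together went from 1 to 2 with total-count scaling or the neutrophil score and to 0 with the erythroid or monocyte score. The comparisons between treated groups went from 0 to 7 and 7 with total-count scaling. With 1 mouse left out, members called ranged from 0 to 1 in E07 and from 0 to 2 in BPR21 against CTRL.

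Genes called among all genes, beside the lowest and highest count over the alternatives, were 1 (0 to 34) in E07, 828 (3 to 7039) in D06, 53 (0 to 677) in BPR21, 521 (1 to 5459) in HOCL, 8 (0 to 235) in D11 and 41 (1 to 2117) in the 3 groups together against CTRL, and 829 (0 to 6883) in E07, 14 (0 to 176) in D06, 67 (0 to 257) in BPR21 and 6 (0 to 158) in D11 against HOCL. Same-numbered mice are different animals, and their deviations correlated over 0.1 in 7 of 11 pairs at most. That was in E07 against CTRL, where their mean r was 0.15 beside -0.0097 for mice of unlike number. In BPR21 against D06 the means were 0.00041 and 0.0014. The main fits did not pair mice by number, and what same-numbered mice may share was not tested. With the replicate block the genes called went from 1 to 13 in E07 and from 53 to 534 in BPR21 against CTRL, and mice did not all correlate best with their own number in any comparison. DESeq2 gave no adjusted p for App and Scarb1 in D11 and in the 3 groups together against CTRL.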

Other observations

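Ccr3, the eosinophil receptor that passed beside the members in D11 against HOCL, led to a look at the eosinophil list, chosen after its values were seen. Of 8 eosinophil genes in the vst table, 5 rose in D06 against CTRL (limma, both thresholds; 7.88% of all genes called), 1 rose in D11 (0.0761%) and 0 passed in E07, BPR21 or HOCL, with list medians of 0.71 in D06, 0.37 in D11, 0.38 in E07, 0.02 in BPR21 and 0.09 in HOCL. The eosinophil score correlated little with the members from mouse to mouse (r = 0.04 for App, 0.07 for Scarb1, 0.20 for Mat2a and 0.02 for Ostc, 70 mice). Epx, an eosinophil peroxidase gene, had a median count of 0.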
